A study of Sus scrofa with 30 samples.

Results

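H3K4me3 in pig 1-cell embryos was compared with H3K4me3 in the MII oocytes from which such embryos are made. The comparison used the 2 libraries labelled as 1-cell embryos and the 2 labelled as MII oocytes, which are 4 of the 30 libraries of the series. Libraries were taken by these labels alone, with no measured value used. Each library came as 1 list of broad peaks, and the positions of peaks on chromosomes 1 to 18 were compared. A feature is called gained where both 1-cell libraries and neither MII library had a peak, and lost where both MII libraries and neither 1-cell library had one.

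H3K4me3 is trimethylation of a lysine in the tail of histone H3. In most cells it sits in narrow peaks at promoters of active or poised genes, and in mammalian oocytes it also forms wide domains far from promoters. At fertilisation the sperm genome arrives packed with protamines and is rebuilt with histones from the egg, while the transcription of the egg has stopped and that of the embryo has yet to start in earnest. The mark is written by SET1 and MLL complexes and removed by KDM5 and KDM1 demethylases. H3K27me3, a mark of repressed genes written by Polycomb complex 2, was profiled in the same series.

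The 1-cell group held zygotes made by fertilisation in vitro, with no further treatment. The MII group held mature oocytes arrested in the second meiotic metaphase, also untreated. Both were profiled by ULI-NChIP, a native chromatin immunoprecipitation for very few cells. The labels state neither how many cells were pooled nor if replicates were collected apart, and the p-values therefore reflect only how much these libraries vary. A 1-cell library holds both parental genomes, and a peak list does not tell them apart.

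The other libraries used here were 14 of H3K4me3, from GV (immature) oocytes, 2-cell to blastocyst embryos and 4-cell embryos given siRNA against KDM5B and KDM5C (siKDM5BC), and 4 of H3K27me3. The lists carry no read totals. The caller's background, a guide to depth, was 2.25 and 1.43 reads per position in the 1-cell libraries and 0.957 and 1.36 in the MII libraries. It ran from 1.07 to 1.69 in the other H3K4me3 libraries. Most peaks were weak, with a median fold enrichment of 2.96 and 3.16 in 1-cell libraries and 3.31 and 3.27 in MII libraries. Restricting the lists to peaks whose −log10 q reached 2 left 3.15 and 28.6 Mb in 1-cell libraries and 1.90 and 22.4 Mb in MII libraries. In both groups replicate 1 thus had few strong peaks. Replicate 1 of the 1-cell embryos also stood apart on chromosome X, where its covered length was 0.345% of that on chromosomes 1 to 18, against 1.475% to 5.27% in the 14 other H3K4me3 libraries. Counts of gained and lost features and the shares of gene lists are therefore given with and without it, while chromosome-end shares and the shares of genes marked at other stages are given with all 4 libraries.

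In both 1-cell libraries the mean peak was wider, and less of the covered length lay far from genes, than in either MII library. The mean peak width was 1121 and 1538 bp in 1-cell libraries and 834 and 1003 bp in MII libraries. The share of covered bases more than 5 kb from any coding gene end, here called distal, was 57.4% and 63.3% in 1-cell libraries and 68.1% and 68.8% in MII libraries. For both measures every 1-cell library lay on 1 side of every MII library. The mean width differed by 0.52 on the log2 scale, 3.51 times the SD among replicates pooled over 9 H3K4me3 groups. The 1-cell libraries differed from each other by 0.456 on that scale. This was the largest gap between replicates of the 9 groups, with 0.216 at most outside these stages. The mean distal share was 60.4 ± 4.21% in 1-cell libraries and 68.4 ± 0.476% in MII libraries (SD, n = 2 each), a difference of −8.07 percentage points or 3.25 times the pooled SD. Exact permutation tests, two-sided, gave p = 0.333 for both, which is the smallest p that 2 libraries against 2 can give, and 0.667 after Benjamini-Hochberg adjustment over 4 measures. Neither difference could therefore pass a threshold of 0.05, and both kept their sign without each library in turn.

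Covered length and the share held in broad peaks did not separate the stages. Peaks covered 68.7 and 139 Mb in 1-cell libraries and 61.0 and 97.5 Mb in MII libraries. Peaks of 5 kb or more held 3.58% and 14.2% of the covered length in 1-cell libraries and 1.86% and 5.94% in MII libraries. On both measures the second 1-cell library was the highest of the 4, and the first lay between the MII libraries. The differences were 0.34 on the log2 scale for covered length and 5.0 percentage points for the broad share (exact permutation test, two-sided, p = 0.667 each, 0.667 after adjustment). Without 1-cell replicate 2 both turned negative, to −0.17 on the log2 scale and −0.32 percentage points.

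**Figure D1:**
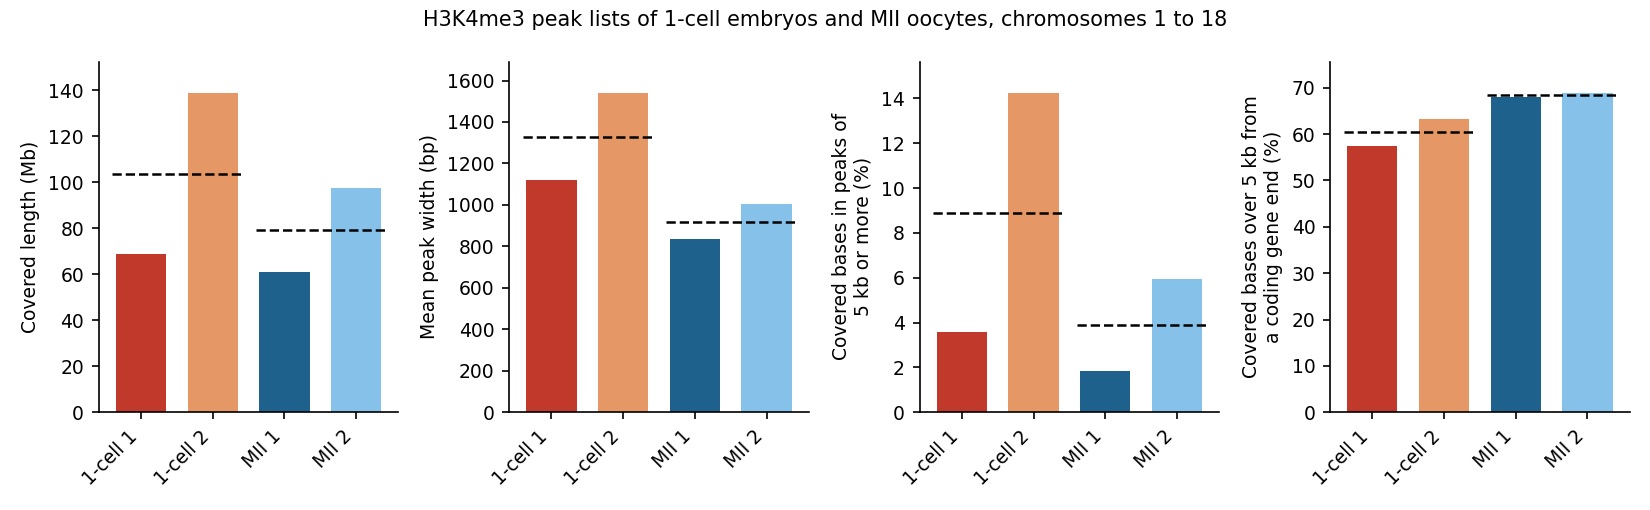
Covered length (Mb), mean peak width (bp), share of covered bases in peaks of 5 kb or more (%) and distal share of covered bases (%) in each 1-cell embryo and MII oocyte library. Bars are libraries and dashed lines are means of 2; widths are above and distal shares below the MII values in both 1-cell libraries, while covered length (68.7 and 139 Mb against 61.0 and 97.5 Mb) overlaps.

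The spread between the 1-cell libraries was wide. Their covered lengths differed by 1.01 on the log2 scale, the largest gap between replicates of any of the 9 H3K4me3 groups, the largest outside these stages being 0.84 in 4-cell embryos. Their broad shares differed by 10.6 percentage points, against 3.31 at most in the groups outside these stages. The second 1-cell library held 2904 peaks of 5 kb or more and the first held 395, against 171 and 840 in MII libraries. The libraries also differed in where they had peaks. Of the bases covered in 1-cell replicate 1, 52.6% were covered in 1-cell replicate 2, and 26.1% in the opposite direction. The shared length over the joint length (Jaccard index) was 0.211 for the 1-cell pair and 0.247 for the MII pair. Across the stages it was 0.239 for the second replicates and 0.110 for the first. The second 1-cell library shared more with the 2-cell libraries, with indices of 0.315 and 0.293, than with its own replicate.

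Peaks of the 4 libraries, merged where they overlapped, made 165221 regions. Of these, 8298 were gained (5.02% of all regions) and 9688 were lost (5.86%). Another 18575 regions had a peak in all 4 libraries. Regions with a peak in 1 library alone outnumbered both gained and lost regions, with 18936 and 27853 in 1-cell libraries and 17199 and 30437 in MII libraries. The regions missing in just 1 library were uneven. There were 12111 missing in 1-cell replicate 1 alone, 1028 missing in 1-cell replicate 2 alone, 5934 missing in MII replicate 1 alone and 1861 missing in MII replicate 2 alone. Regions covered in both second replicates and neither first replicate numbered 8085, close to the number gained. The balance of gained to lost changed with the libraries kept. With a library left out, the other library of its group decides alone, so both counts rise by construction. It was 0.857 with all 4 libraries, 3.44 without 1-cell replicate 1, 1.31 without 1-cell replicate 2, 0.245 without MII replicate 1 and 0.481 without MII replicate 2.

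**Figure D2:**
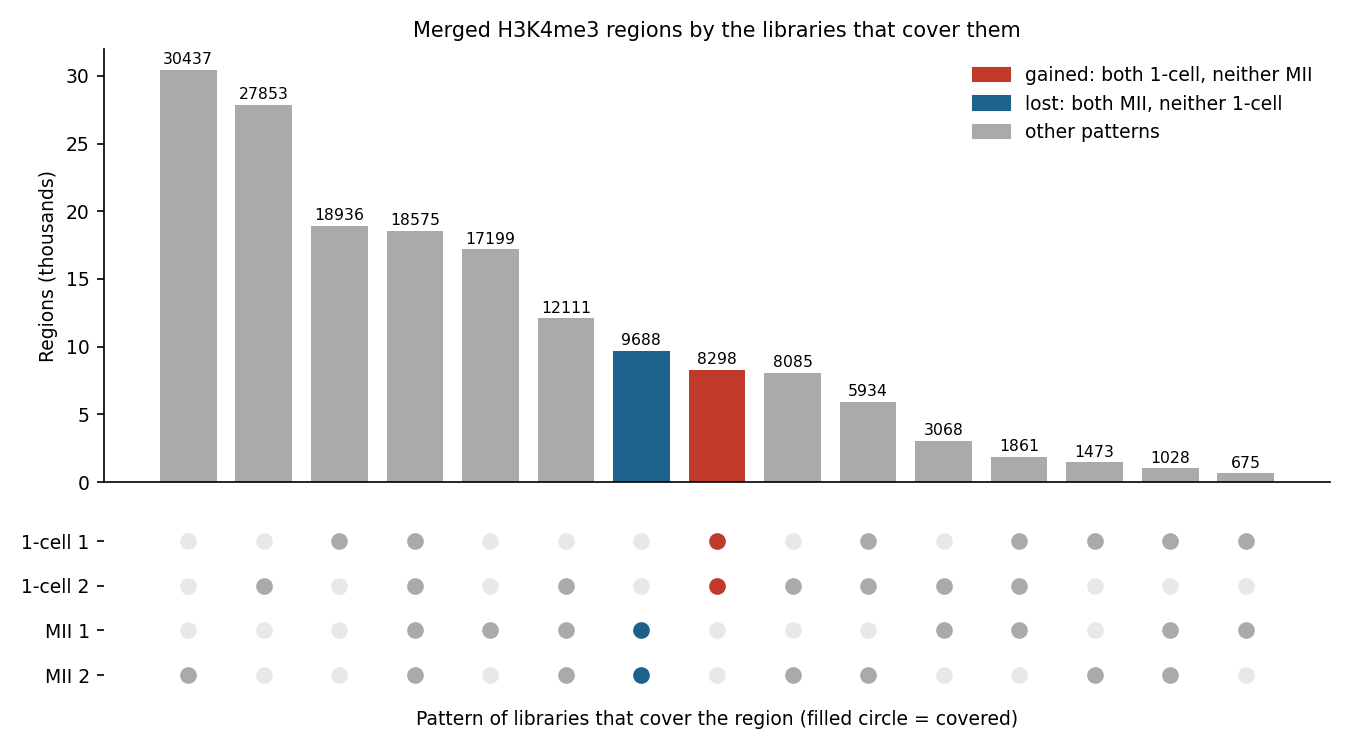
Number of merged regions (in units of 1000, with the count above each bar) for each of the 15 patterns of libraries that cover them. Filled circles mark the covering libraries; gained regions (8298) and lost regions (9688) are fewer than regions seen in 1 library alone.

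Gained regions were wider and nearer to genes than lost regions. Median widths were 1619 bp for gained, 1079 bp for lost and 3307 bp for regions in all 4 libraries. The median distance to the nearest coding gene end was 13.7 kb for gained, 36.3 kb for lost and 21.7 kb for all regions. Gained regions were distal in 71.6% of cases, lost regions in 84.8%, and all regions in 75.6%. The lower distal share of gained regions held under each of the 8 alternative settings and leave-outs tried. Coding genes overlapped, by any base, 51.3% of gained and 42.7% of lost regions, against 48.8% of all regions.

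Lost regions were frequent near the ends of chromosomes. The outer 5 Mb of chromosomes, measured from position 1 and from the last coding gene or peak, held 6.85% of gained regions, 24.6% of lost regions and 15.4% of all regions. They also held 34.2% of the regions missing in 1-cell replicate 1 alone. The part that replicate 1 plays in the losses at chromosome ends was not tested. By chromosome, the ratio of gained to lost regions ran from 0.562 on chromosome 11 to 1.24 on chromosomes 2 and 13.

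Few gained or lost regions carried strong peaks. The authors' fold enrichment had a median of 2.95 and 3.13 over gained regions in the 1-cell libraries, and of 3.29 and 3.26 over lost regions in the MII libraries. A −log10 q of 3 or more in both libraries was reached by 3 gained and 4 lost regions. The strongest gained region that met a coding gene end lay at MOCS2, which makes a subunit of molybdopterin synthase, on chromosome 16 at 32461771 to 32463119, with −log10 q of 3.29 and 3.57 in 1-cell libraries. That region also had a peak in all 14 other H3K4me3 libraries, both GV oocyte libraries among them. The 2 strongest losses were narrow. One was a region of 223 bp on chromosome 14 near B3GNT4, with −log10 q of 45.2 and 90.5 in the MII libraries. The other was a region of 837 bp at 10703 to 11539 of chromosome 8, with 19.4 and 39.0. Of the 14 other H3K4me3 libraries, 9 had a peak at the former and 10 at the latter.

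The libraries of other stages, which had no part in sorting the regions, also told the classes apart. Peaks of both 2-cell libraries were present at 48.8% of gained regions, 17.4% of lost regions and 31.2% of all regions. Peaks of both GV oocyte libraries were present at 7.64% of gained, 27.8% of lost and 23.1% of all regions. Gained regions thus had H3K4me3 at the next stage more often than the average region and at the earlier oocyte stage less often. In 4-cell embryos the shares were 8.29% of gained and 4.68% of lost regions, both below the share of all regions. In blastocysts they were 22.3% and 9.78%. Regions in all 4 libraries were covered in 67.8% and 68.5% of cases at these stages. Among regions of 1 to 2 kb, where width differs little, 2-cell peaks covered 42.5% of gained and 18.6% of lost regions, and GV peaks covered 7.71% and 30.6%. These orders rested on the libraries used. Without 1-cell replicate 1 the 2-cell share was 22.7% of gained and 21.1% of lost regions, close to each other. Without 1-cell replicate 2 it was 23.8% of gained and 41.9% of lost regions. The GV share was higher in gained than in lost regions without MII replicate 1 (13.0% and 12.7%), without MII replicate 2 (26.4% and 14.7%) and with peaks of −log10 q of 2 or more (83.3% and 75.7%).

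Lost regions carried H3K27me3 in the oocyte more often than gained regions. Both H3K27me3 libraries of MII oocytes covered 2.75% of gained regions, 26.4% of lost regions and 13.2% of all regions. They covered 26.2% of regions in all 4 libraries, so lost regions did not stand apart from regions that were kept. The share was higher in lost than in gained regions under every setting and leave-out tried, with the smallest difference at 6.82% of gained and 16.6% of lost regions, found without MII replicate 2. Regions missing in 1-cell replicate 1 alone carried it in 41.8% of cases.

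**Figure D3:**
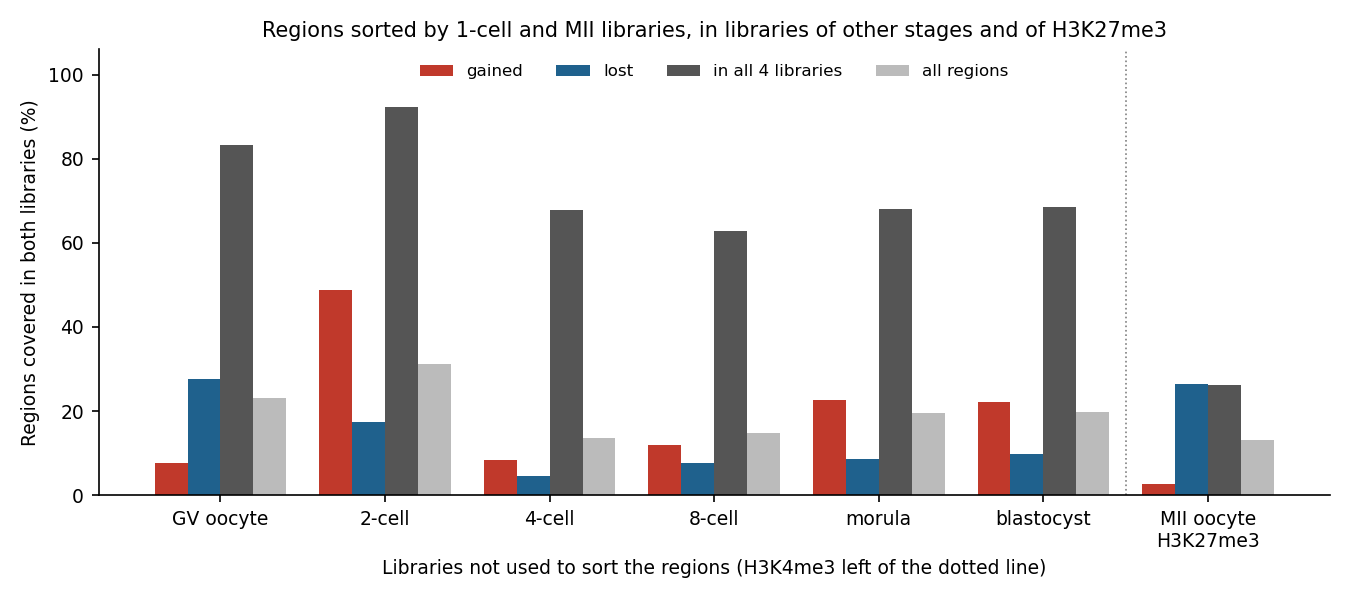
Share (%) of gained, lost, 4-library and all regions covered in both libraries of each other stage, with H3K27me3 of MII oocytes right of the dotted line. Gained regions exceed all regions at the 2-cell stage (48.8% against 31.2%) and fall below them in GV oocytes (7.64% against 23.1%). H3K27me3 covers 2.75% of gained regions, 26.4% of lost regions and 26.2% of regions in all 4 libraries.

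Counted in bases, 17.7 Mb were gained and 11.3 Mb were lost, of 237 Mb covered in any of the 4 libraries. Most of these bases flanked regions that both stages shared. Of the gained bases, 70.8% lay in regions that a MII library also covered elsewhere, and of the lost bases 60.8% lay in regions that a 1-cell library also covered. Only 7.34 Mb were covered in all 4 libraries. The ratio of gained to lost bases was 1.57 with all 4 libraries, 6.61 without 1-cell replicate 1, 1.96 without 1-cell replicate 2, 0.433 without MII replicate 1 and 0.888 without MII replicate 2. A leave-out eases calls in both directions by construction, so these ratios do not show which library sets the direction. It was 0.817 when each list was cut to the 61.0 Mb (highest −log10 p first) covered by the shortest list.

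A coding gene was counted as marked if any peak reached within 1 kb of its start or its end. Marked genes numbered 12295 and 14354 in 1-cell libraries and 11370 and 13724 in MII libraries, of 18722. Gains numbered 521 (2.78% of coding genes) and losses 268 (1.43%). The gained genes were 12.2% of the 4289 genes marked in neither MII library, and the lost genes were 2.51% of the 10661 genes marked in both. Most marked genes were shared, with 8779 marked in all 4 libraries. Without 1-cell replicate 1, which left 1 embryo library, 915 genes were gained and 389 lost. Without 1-cell replicate 2 there were 759 gained and 1761 lost, with no excess of gains. Either leave-out eases calls in both directions, so these counts do not show which library sets the excess. With lists of equal covered length, 666 genes were gained and 663 lost. Of the 521 gained genes 270 were again called, as were 172 of the 268 lost genes, and 0 changed direction.

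Gained and lost genes stood in the same order to each other in other libraries as regions did, but not relative to all features. Lost genes lay below all genes in GV oocytes, where lost regions lay above all regions. In 2-cell libraries gained genes lay near all genes, where gained regions lay well above all regions. Both 2-cell libraries marked 74.5% of gained genes and 30.2% of lost genes, against 72.1% of all coding genes. Both GV libraries marked 44.5% of gained and 53.4% of lost genes, against 70.0% of all. In blastocysts the shares were 75.2% and 42.5%, against 73.9%. H3K27me3 of MII oocytes marked 2.30% of gained, 21.6% of lost and 11.3% of all genes.

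The 10 gained genes with the widest separation between stages in covered bases within 5 kb of either end were DAXX, PRPH, GMEB1, BICDL2, POLR2G, NUP160, MBOAT4, CD320, CIC and TFIP11. They were chosen by this contrast, so their values are a description. DAXX, a chaperone of the histone variant H3.3 (chromosome 7, 29676854 to 29681145), had 8782 and 9322 covered bases in 1-cell libraries and 1468 and 1629 in MII libraries. Within 1 kb of its ends it had 2727 and 3960 bases in 1-cell libraries and 0 in both MII libraries. The gene was covered in both 1-cell libraries over several times the length seen in either oocyte library, and GV oocytes had 3003 and 2197 bases at the same ends.

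GMEB1, a DNA-binding protein that modulates glucocorticoid responses (chromosome 6, 85657519 to 85701211), had 6495 and 8314 bases within 5 kb in 1-cell libraries and 0 in both MII libraries. TFIP11, which takes apart the spliceosome after splicing (chromosome 14, 44097026 to 44113760), had 4804 and 4923 bases in 1-cell libraries and 0 in both MII libraries. POLR2G, a subunit of RNA polymerase II, had 6270 and 8098 bases in 1-cell libraries and 0 and 669 in MII libraries. At these genes the 1-cell replicates lay close to each other and far from both oocyte libraries. NUP160, of the nuclear pore scaffold, had 8468 and 5989 bases in 1-cell libraries and 686 and 258 in MII libraries, and CIC, a transcriptional repressor, had 6259 and 6026 in 1-cell libraries and 469 and 1083 in MII libraries. The others were PRPH, a neuronal intermediate filament, BICDL2, a dynein cargo adaptor, MBOAT4, the acyltransferase of ghrelin, and CD320, the receptor of the vitamin B12 carrier. Over the 10 genes the 1-cell values ran from 4804 to 9655 and the MII values from 0 to 2248. All 10 were marked in both 2-cell libraries and 5 in both GV libraries.

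The 10 lost genes with the widest separation were TH, MUC6, NR2F2, ADGRF3, GML, NBL1, ZDHHC22, DOCK2, WDR25 and PARVG. TH, the rate-limiting enzyme of catecholamine synthesis (chromosome 2, 1499628 to 1506180), had 608 and 3292 covered bases within 5 kb in 1-cell libraries and 7651 and 11155 in MII libraries. MUC6, a gastric mucin on the same chromosome (630075 to 657967), had 0 and 2394 bases in 1-cell libraries and 6714 and 8043 in MII libraries. NR2F2, an orphan nuclear receptor (chromosome 7, 83076119 to 83090250), had 2632 and 2351 bases in 1-cell libraries and 6425 and 6647 in MII libraries. The stages did not overlap at these genes, but at TH and MUC6 the first 1-cell library was far below the second.

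Over the 10 lost genes the 1-cell values ran from 0 to 4106 bases and the MII values from 2415 to 11155. NBL1 encodes an antagonist of BMP signals, DOCK2 an activator of RAC in leukocytes, ZDHHC22 a palmitoyltransferase, ADGRF3 an adhesion receptor, GML a GPI-anchored protein, and PARVG an integrin-linked adaptor. H3K27me3 of MII oocytes covered over 1 kb in both libraries around 9 of the 10, with 15384 and 13739 bases at TH and 9657 and 8044 at ZDHHC22. NR2F2 was the exception, with 221 and 0 bases. Among the 10 gained genes just CIC had any, with 1428 and 182 bases. The share of all coding genes with this much H3K27me3 was not counted, and these genes were chosen by H3K4me3 cover in the same windows. Within 1 kb of an end, both H3K27me3 libraries marked 21.6% of all lost genes and 11.3% of all coding genes. Of the 10 lost genes named here, 4 were marked again in both 2-cell libraries.

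**Figure D4:**
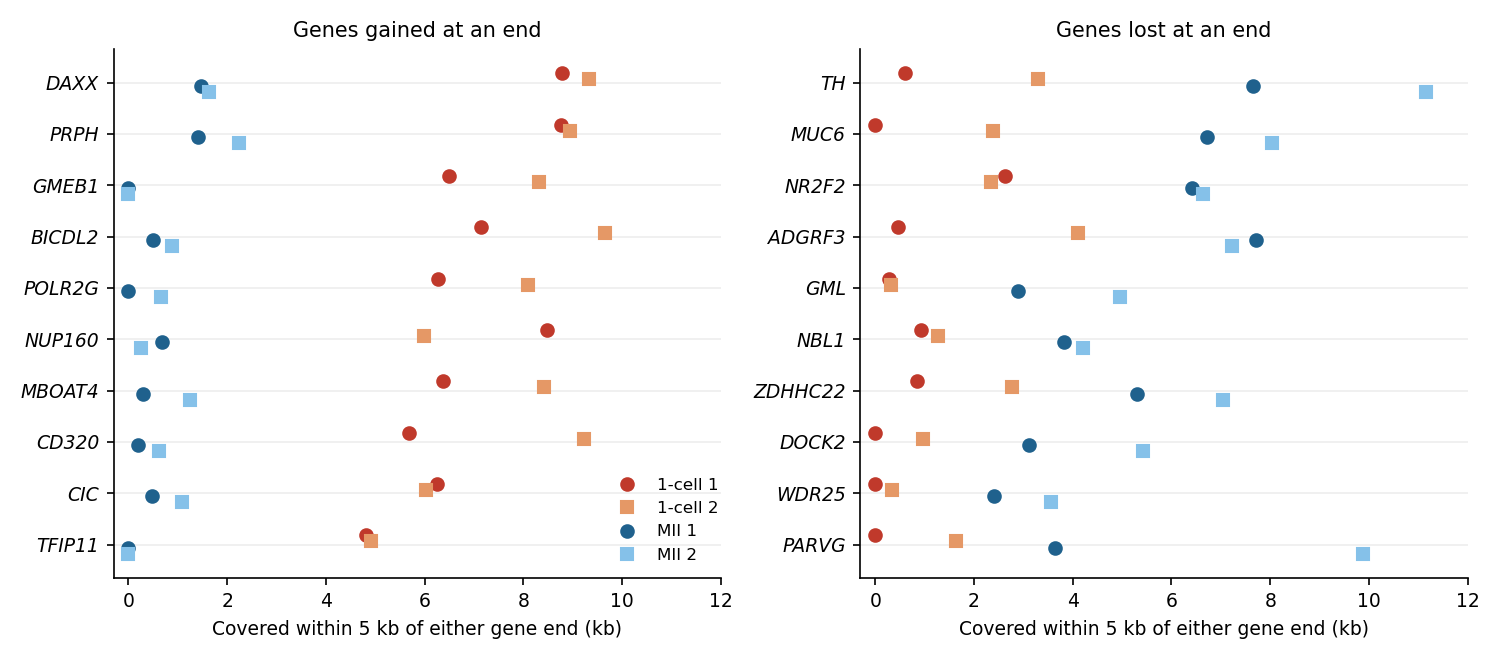
Covered bases (kb) within 5 kb of either end of the 10 gained and 10 lost genes with the widest separation, in each of the 4 libraries. Points are libraries; 1-cell values run from 4804 to 9655 bases at gained genes and from 0 to 4106 at lost genes, with the MII values at 0 to 2248 and 2415 to 11155.

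Over windows of 50 kb the widest separations were NUP160, CAMKV, DNAJC7, FRYL and PRR14 with more cover in 1-cell libraries. CAMKV, a neuronal kinase-like protein (chromosome 13, 32381122 to 32401480), had 30544 and 31054 bases in 1-cell libraries and 5706 and 6538 in MII libraries. DNAJC7, a cochaperone, and PRR14, which ties heterochromatin to the nuclear lamina, had a peak at an end in all 4 libraries, so the difference lay around the ends. PRR14 had 33626 and 56523 bases in 1-cell libraries and 9501 and 10646 in MII libraries. None of the 5 had more than 341 bases of H3K27me3 in a MII library.

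SLC12A7, OSBPL8, ZFPM1, DBH and CFAP46 had the widest separations with less cover in 1-cell libraries. SLC12A7, a potassium-chloride cotransporter (chromosome 16, 79356868 to 79396652), had 3701 and 45866 bases in 1-cell libraries and 64476 and 84562 in MII libraries. DBH, which makes noradrenaline from dopamine (chromosome 1, 273204407 to 273225562), had 5018 and 32044 bases in 1-cell libraries and 42414 and 53901 in MII libraries. At both genes, and at ZFPM1, a cofactor of GATA factors, and CFAP46, of the cilium, the first 1-cell library lay far below the second. OSBPL8, a lipid transfer protein (chromosome 5, 39568136 to 39744655), had low values in both, with 2594 and 7161 bases in 1-cell libraries and 18213 and 21369 in MII libraries. GV oocytes had 19721 and 20541 bases there, and 2-cell embryos 9072 and 7541.

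The widest gained region lay inside JAK2, a cytokine receptor kinase, at 216986874 to 216998666 of chromosome 1, with 6962 and 7692 covered bases in 1-cell libraries. The others included regions nearest to NKIRAS2, an inhibitor of NF-κB signalling, PDE1C, a cyclic nucleotide phosphodiesterase, and KLF13, a zinc finger factor, 8991 to 9270 bp wide. The widest lost regions were narrower, from 6364 to 7568 bp. The widest lay 221 kb from its nearest coding gene, FOXL1, and others lay inside WNT7B, a Wnt ligand gene, SDK1, of cell adhesion, and SLIT3, a guidance ligand gene.

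Over all coding genes, cover within 5 kb of an end was higher in both 1-cell libraries than in both MII libraries for 7511 genes (40.1% of all) and lower for 942 (5.03%). The median gene had 1684.5 and 2970.5 bases in 1-cell libraries and 891 and 1461 in MII libraries. Lists of genes were read against these shares. With lists of equal covered length the shares of all genes were 31.6% and 10.2%. Without 1-cell replicate 1 they were 67.4% and 6.48%, and without 1-cell replicate 2 they were 44.6% and 23.2%. Leaving a library out raises both shares by construction, and the share lower rose most without 1-cell replicate 2. Without that library the count with less cover also rose in every list except genes that rebuild the paternal genome, where it stayed 0.

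**Figure D5:**
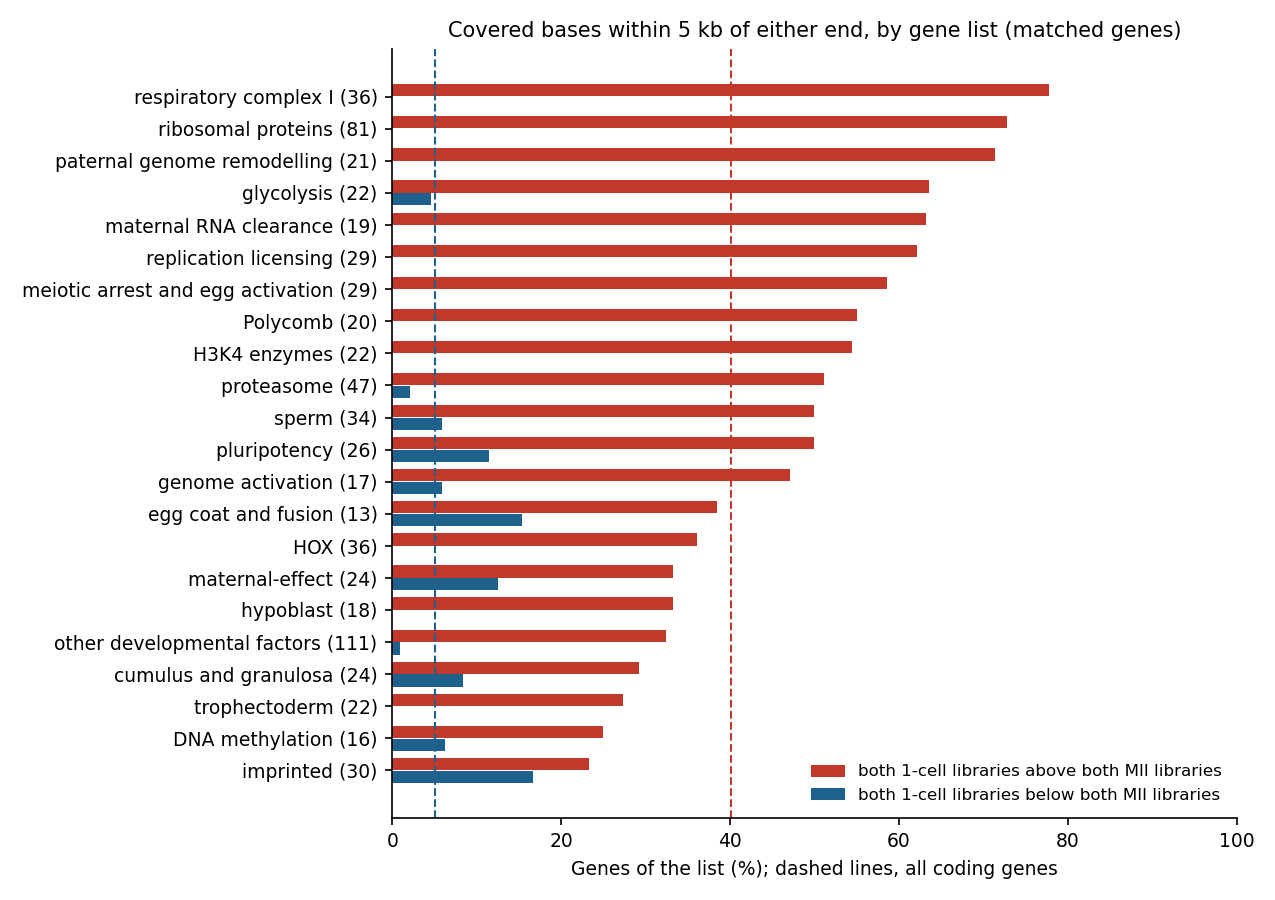
Share (%) of the genes of each list whose cover within 5 kb of an end was higher (red) or lower (blue) in both 1-cell libraries than in both MII libraries, with the number of genes in brackets. Dashed lines give all coding genes, 40.1% higher and 5.03% lower; with all peaks and all 4 libraries, as plotted, respiratory complex I genes (77.8% higher) stand furthest above and imprinted genes (23.3%) furthest below.

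With all peaks and all 4 libraries, respiratory complex I and ribosomal protein genes had the highest shares of the lists, and with lists of equal covered length genes that rebuild the paternal genome did. Of 36 respiratory complex I genes, 28 (77.8%) had more cover in 1-cell libraries and 0 had less, with median values of 2950 and 3905 bases in 1-cell libraries and 935.5 and 1498.5 in MII libraries. NDUFS1, the largest complex I subunit, had 3679 and 5798 bases in 1-cell libraries and 262 and 244 in MII libraries. Of 81 ribosomal protein genes 59 (72.8%) had more and 0 had less. All 36 complex I genes were marked in both 1-cell libraries, and 28 and 33 of them in the MII libraries, and ribosomal protein genes were marked at 76 and 78 in 1-cell libraries and 60 and 70 in MII libraries. Of 47 proteasome genes 24 (51.1%) had more and 1 less. Of 22 glycolysis genes 14 (63.6%) had more and 1 less. When 1-cell replicate 1 was left out, 34 of 36 complex I genes (94.4%) and 73 of 81 ribosomal protein genes (90.1%) had more, against 67.4% of all genes. With lists of equal covered length the counts with more cover were 22 of 36 for complex I, 52 of 81 for ribosomal proteins, 17 of 47 for the proteasome and 9 of 22 for glycolysis.

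Gained members of these lists were few, and PSMA3 and PSMB6 lost the call with lists of equal covered length. They included RPL32 of the ribosome, PSMA3 and PSMB6 of the proteasome, NDUFB6 of complex I and LDHA, which makes lactate from pyruvate. LDHA (chromosome 2, 40814163 to 40827284) had 890 and 2707 bases within 1 kb in 1-cell libraries and 0 in both MII libraries. It had 0 in both GV libraries too and 1256 and 576 in 2-cell libraries. ALDOC, an aldolase, was lost, with 0 in both 1-cell libraries and 1011 and 655 in MII libraries.

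Genes that rebuild the paternal genome stood above all genes, by a margin that depended on the libraries. Of 21, 15 (71.4%) had more cover in 1-cell libraries and 0 had less, against 40.1% of all genes, and the count was also 15 with lists of equal covered length, against 31.6% of all. Without 1-cell replicate 1 it was 16 (76.2%), nearer to the 67.4% of all genes and below HOX genes (83.3%) and Polycomb genes (18 of 20). The median was 3134 and 4248 bases in 1-cell libraries and 1119 and 1683 in MII libraries. SRPK1, the kinase that phosphorylates protamines, had 6972 and 5575 bases in 1-cell libraries and 1303 and 894 in MII libraries. UBN1, of the HIRA complex that places H3.3, had 6220 and 10838 bases in 1-cell libraries and 1682 and 2031 in MII libraries. DAXX was the 1 member gained. TET3, which oxidises methylcytosine in the zygote, overlapped between stages, with 4786 and 3741 bases in 1-cell libraries and 1119 and 5552 in MII libraries.

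For the writers and erasers of the mark, 12 of 22 genes (54.5%) had more cover in 1-cell libraries and 0 had less. SETD1A and RBBP5, a methyltransferase and a core subunit of its complexes, were gained. RBBP5 (chromosome 9, 65783725 to 65821681) had 3982 and 4411 bases within 5 kb in 1-cell libraries and 0 in both MII libraries. KDM5B, a demethylase of the mark, had 4250 and 8253 bases in 1-cell libraries and 1566 and 2778 in MII libraries. KDM1B, the demethylase of growing oocytes in mouse, had 0 and 1951 in 1-cell libraries and 665 and 871 in MII libraries and thus split the 1-cell replicates. Of 20 Polycomb genes 11 (55.0%) had more and 0 less, and EED, a core subunit of Polycomb complex 2, was gained with 669 and 1154 bases within 1 kb in 1-cell libraries and 0 in both MII libraries. The shares with more cover without 1-cell replicate 1 were 86.4% for writers and erasers and 18 of 20 for Polycomb genes, against 67.4% of all genes. RBBP5 lost its call with lists of equal covered length.

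Lists for the egg-to-embryo transition were mixed. Of 19 genes of maternal RNA clearance 12 (63.2%) had more cover in 1-cell libraries and 0 less, of 29 replication licensing genes 18 (62.1%) and 0, and of 29 genes of meiotic arrest and egg activation 17 (58.6%) and 0. With lists of equal covered length these counts were 7, 14 and 8, so the first and last lay near or below the 31.6% of all genes. Leaving out 1-cell replicate 1 gave shares of 89.5%, 86.2% and 86.2%, against 67.4% of all genes. BTG4, which brings deadenylases to maternal mRNA (chromosome 9, 39253116 to 39281327), was gained, with 833 and 1010 bases within 1 kb in 1-cell libraries and 0 in both MII libraries. PLK1, a mitotic kinase, was gained with 136 and 606 bases in 1-cell libraries and 0 in both MII libraries. GINS3, of the replicative helicase, was gained, and PRIM2, a primase subunit, was lost on 86 and 65 bases in MII libraries. Neither call was made with lists of equal covered length.

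The place of oocyte genes relative to all genes depended on 1-cell replicate 1. Of 24 maternal-effect genes 8 (33.3%) had more cover and 3 (12.5%) less, and of 13 egg coat and fusion genes 5 (38.5%) and 2 (15.4%), against 40.1% and 5.03% of all genes. Without that library 19 of 24 maternal-effect genes (79.2%) had more, above the 67.4% of all genes, and 8 of 13 egg coat genes (61.5%), below it. Without 1-cell replicate 2, 9 maternal-effect genes had more and 9 less, and 6 egg coat genes had more and 3 less. The shares of all genes were then 44.6% and 23.2%. ZAR1, an RNA-binding maternal factor, had 8369 and 6774 bases within 5 kb in 1-cell libraries and 1178 and 2941 in MII libraries. ZP3, a zona protein, had 408 and 3972 in 1-cell libraries and 2434 and 4173 in MII libraries. ZFP57, which protects imprints, was the 1 maternal-effect gene lost, with 0 bases within 1 kb in both 1-cell libraries and 1351 and 575 in MII libraries. Within 5 kb it had 1564 and 1822 bases in 1-cell libraries and 2508 and 2224 in MII libraries, so the loss was local to its ends.

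Among 17 genome activation genes, 8 (47.1%) had more cover and 1 had less. ZSCAN4 and KLF17 were gained, and KLF5 and RFPL4B were lost. KLF17, a zinc finger factor of early embryos (chromosome 6, 167176834 to 167188418), had 1332 and 2267 bases within 1 kb in 1-cell libraries and 0 in both MII libraries. It also had 2161 and 2611 in GV oocytes. KLF5 had 0 in both 1-cell libraries and 321 and 1562 in MII libraries, and 2001 and 1236 in GV oocytes. Of 26 pluripotency genes 13 had more and 3 less, POU5F1 having 3446 and 5173 bases within 5 kb in 1-cell libraries and 1638 and 3545 in MII libraries, which overlap. SOX2 had less, with 944 and 1093 in 1-cell libraries and 2454 and 2840 in MII libraries. Leaving out 1-cell replicate 1 gave shares of 88.2% for genome activation and 76.9% for pluripotency genes, against 67.4% of all genes. With lists of equal covered length the calls of ZSCAN4, KLF5 and RFPL4B were lost.

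Developmental regulators had wide cover at both stages, and their share with more cover lay below or above that of all genes depending on the setting. For 36 HOX genes the medians were 4803.5 and 7959 bases in 1-cell libraries and 3478.5 and 6030.5 in MII libraries, with 13 (36.1%) higher and 0 lower. For 111 other developmental factors 36 (32.4%) were higher and 1 lower. HOXC4 was lost at its own ends, with 0 in both 1-cell libraries and 196 and 737 bases in MII libraries, and MYF5, a myogenic factor, was gained. Of 22 trophectoderm genes 6 were higher and 0 lower, with TEAD3 gained. Of 18 hypoblast genes 6 were higher and 0 lower, with LAMB1 gained and GATA4 lost. Against 40.1% of all genes these shares were low. Leaving out 1-cell replicate 1 turned them to 83.3% for HOX genes, 79.3% for other factors and 77.3% for trophectoderm genes, above the 67.4% of all genes, with hypoblast genes at 66.7%. Without MII replicate 2 HOX genes (27 of 36) and other factors (63.1%) also exceeded the 56.0% of all genes, and with lists of equal covered length HOX genes (41.7%) exceeded 31.6%. The low counts with less cover did not hold without 1-cell replicate 2. HOX genes then had 13 higher and 8 lower, and other factors 38 and 37. Trophectoderm genes had 7 and 9, and hypoblast genes 8 and 6, against 44.6% and 23.2% of all genes. The calls of TEAD3, LAMB1 and GATA4 were lost with lists of equal covered length. Of 16 DNA methylation genes 4 were higher and 1 lower, and without 1-cell replicate 1 the share higher was 68.8%. ZFP57 was again the 1 lost.

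Of 30 imprinted genes 7 (23.3%) had more cover and 5 (16.7%) had less, against 40.1% and 5.03% of all genes. Of the 30, 15 had more without 1-cell replicate 1, against 67.4% of all genes. Without 1-cell replicate 2, 11 had more and 15 less, against 44.6% and 23.2% of all genes. The share of imprinted genes with more cover was the lowest of the lists with all 4 libraries and all peaks. Cumulus and granulosa genes were lower without 1-cell replicate 1 (37.5%) and with lists of equal covered length (8.33%, against 16.7% of imprinted genes). Neighbouring genes of 1 imprinted cluster on chromosome 1 went opposite ways. NDN (142412688 to 142413665), expressed from the paternal copy in mouse and human, had 730 and 1701 bases within 1 kb in 1-cell libraries and 0 in both MII libraries. MKRN3 (142492089 to 142500968), also paternally expressed in those species, had 0 in both 1-cell libraries and 1345 and 1766 in MII libraries. In 2-cell libraries NDN had 1523 and 1241 bases and MKRN3 had 0 in both. In GV oocytes both genes were covered, NDN over 863 and 575 bases and MKRN3 over 1912 and 1674. Both calls were also made with lists of equal covered length, and neither with peaks of −log10 q of 2 or more. PEG3, another paternally expressed gene, was gained, with 2135 and 1919 bases within 5 kb in 1-cell libraries and 0 in both MII libraries.

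Markers of the cells that could accompany these samples were read in the same way. All coding genes were marked in 65.7% and 76.7% of cases in 1-cell libraries and 60.7% and 73.3% in MII libraries. Of 24 cumulus and granulosa cell genes, 12 and 14 were marked in 1-cell libraries and 12 and 13 in MII libraries, with 0 gained and 0 lost. Within 5 kb 7 of them (29.2%) had more cover and 2 less, and without 1-cell replicate 1, 9 (37.5%) had more, 2 were gained and 1 was lost. Of 34 sperm genes, 24 and 23 were marked in 1-cell libraries and 16 and 19 in MII libraries. Of these 4 (11.8%) were gained and 0 lost, against 2.78% and 1.43% of all genes. Within 5 kb 17 of 34 had more cover and 2 less, against 40.1% and 5.03% of all genes, and 25 (73.5%) had more without 1-cell replicate 1, against 67.4%. The 17 include PRM1, PRM2, PRM3 and TNP2, neighbours on chromosome 3 with identical cover within 5 kb in each library compared. This cluster is therefore counted more than once in the share of sperm genes. The share with the cluster counted once was not computed. TMEM95, a sperm membrane protein needed for fusion in mouse, had 1982 and 2119 bases within 1 kb in 1-cell libraries and 0 in both MII libraries, and 2336 and 1677 in 2-cell libraries. PRM2 and PRM3, neighbouring protamine genes under the same peaks (chromosome 3, 31864350 to 31866717), were covered in both 1-cell libraries and had 0 bases in both MII libraries. ADAM2, of the sperm membrane, had 609 and 1731 in 1-cell libraries and 0 in both MII libraries. With lists of equal covered length TMEM95 alone of these 4 kept the call, and the share of sperm genes with more cover was 20.6%, below the 31.6% of all genes. None of the 4 was called with peaks of −log10 q of 2 or more. The part of sperm chromatin in these values was not tested.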

How the data were processed

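Broad peaks of H3K4me3 ULI-NChIP libraries were deposited per library. Alignment tool Bowtie2 2.4.1, peak caller MACS2 and pig build susScr11 are listed, without roles, per the submitters' processing notes. For MACS2, the version, control and threshold are not given in the sources used here. In the deposited lists the authors' fold enrichment is a ratio over the caller's background, beside the authors' −log10 p and −log10 q and an integer score, and peak positions are in bp. Library depth is unknown. The background was recovered by solving the deposited fold and −log10 p for read counts, with an error of 1.04e-05 at most.

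Peaks on chromosomes 1 to 18 were merged and intersected (1 bp counts) with Python 3.11.15, numpy 2.4.6, pandas 2.3.3 and scipy 1.17.1, after tests on simulated intervals. The 18722 coding genes came from RefSeq annotation of the same assembly, which gave no strand here, so both ends were used. Of 531 listed symbols 483 were matched. A list of olfactory receptors, by name pattern, matched none. Named genes were the 10 per direction with the widest gap at 5 kb, 5 per direction at 50 kb, gained or lost list members, and genes nearest to the 5 widest regions. Genes without a symbol were counted and not named, and of genes sharing an end window 1 was kept. The list members PRM2 and PRM3 share an end window and were both kept. The members, lists and rules were chosen with earlier results of these data known. With 2 libraries a group, no test was made per gene or region. MOCS2, B3GNT4 and list members that were neither gained nor lost were named after their values were seen. Library measures used exact permutation tests with Benjamini-Hochberg adjustment over 4 measures. Differences between replicates 1 and 2 were not correlated between the groups (r = −0.0112 over 165221 regions). That correlation cannot see an overall shift shared by libraries of the same number, so it does not settle if they are paired. Alternatives are listed in the closing section.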

Additional observations from a re-analysis of the deposited data

Results flagged for a closer look

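Chromosome Y, left out of all the counts above, had 12 regions with a peak in both 1-cell libraries and in neither MII library. It was noticed as a signal outside the chromosomes compared. None of the 12 had a peak in either GV oocyte library of H3K4me3 or either MII oocyte library of H3K27me3. All 12 had a peak in both 2-cell, both 4-cell and both 8-cell libraries, 10 and 7 in morulae and 11 and 11 in blastocysts. H3K27me3 libraries of 2-cell embryos covered 10 and 8 of them. On chromosomes 1 to 18, fold enrichment in gained regions reached 5.04 and 4.84 at most in the 1-cell libraries. The region at 43257328 to 43258225 had fold enrichments of 33.4 and 28.2 in the 1-cell libraries, and that at 40209516 to 40212559 had 14.0 and 12.8. With peaks of −log10 q of 2 or more 7 regions were left, and 12 to 15 were found without each library in turn. MII libraries had 5 and 16 Y peaks of their own, 4 regions of which, between 5959370 and 5988732, were covered in both MII and neither 1-cell library. Oocytes carry no Y chromosome, and the origin of the peaks placed on it in oocyte libraries was not tested.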

How the results depend on the processing

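Distal share (−5.09 to −19.2 percentage points) and mean width (0.28 to 0.76 on the log2 scale) kept their direction under all alternatives run. Covered length ranged from −0.17 to 0.84 on the log2 scale and broad share from −0.32 to 10.3 percentage points when each library was left out. Broad share was −1.21 points with peaks under 1 kb apart joined, which makes wider peaks by construction. Leaving out each library gave 10249 to 37554 regions gained and 10910 to 41801 lost, 20.8 to 82.5 Mb gained and 12.5 to 47.9 Mb lost, 759 to 2598 genes gained and 389 to 1761 lost, and 8091 to 12625 genes with more and 1213 to 4348 with fewer bases within 5 kb. With −log10 q of 2 or more there were 498 regions gained and 374 lost, and 0.773 Mb gained and 0.257 Mb lost. At this threshold 385 genes were gained and 136 lost, and 835 genes had more and 270 fewer bases. Cutting the lists to equal covered length gave 2926 regions gained and 10696 lost, a ratio of 0.274 against 0.857 with all peaks. It also gave 9.69 Mb gained and 11.9 Mb lost, and 666 genes gained and 663 lost. With these lists 5913 genes had more and 1911 fewer bases. Requiring 50% of a region gave 3476 gained and 4499 lost, and requiring 50% of a window gave 1958 genes gained and 212 lost. Stretches of 500 bp or more held 13.0 Mb gained and 7.09 Mb lost. With a library left out, counts in both directions rise by construction, since 1 library then stands for its group. The cause of the other shifts was not tested. At −log10 q of 2 or more, 1 of the 10 gained and 0 of the 10 lost genes with the widest separation kept the call. With equal covered length 7 and 9 did. Of gained and lost list members 0 of 24 and 0 of 8 kept it at −log10 q of 2 or more, and 14 and 4 with equal covered length. The 5 kb counts and the list counts were chosen as results after the data were seen, as were their alternatives. A replicate block left the 4 library differences as they were, at 0.34, 5.0, −8.07 and 0.52, with p = 0.5 (exact sign flips, the smallest 2 pairs allow). The labels do not state if libraries of the same replicate number belong together. The use of transcription starts alone and a look at promoter sequence were planned and not run, since strand and sequence were not used here. Depth is unknown, so a missing peak is not evidence of a missing mark.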

Other observations

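Chromosome X was also outside the comparison. It held 334 and 2451 peaks in the 1-cell libraries and 3135 and 4145 in the MII libraries. Its covered length was 0.345% and 2.19% of that on chromosomes 1 to 18 in 1-cell libraries and 4.09% and 4.20% in MII libraries. Coding genes of X marked at an end numbered 104 and 434 in 1-cell libraries and 407 and 519 in MII libraries, of 762, and 358 to 555 in the 14 other H3K4me3 libraries. The first 1-cell library was therefore the lowest of all 18, and the second lay within the range of the others. Of 5875 regions on X, 16 were gained, 634 lost and 875 missing in 1-cell replicate 1 alone. The lowest of the 14 other libraries were those of 2-cell embryos, at 1.585% and 1.475%.

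The siKDM5BC 4-cell libraries, which held 32.7% and 32.4% of their covered length in peaks of 5 kb or more, covered 35.6% of gained and 44.6% of lost regions in both libraries, against 39.8% of all regions. Untreated 4-cell libraries covered 8.29% of gained and 4.68% of lost regions, both below their share of all regions. Among single libraries, the second 1-cell library shared most with siKDM5BC, with Jaccard indices of 0.355 and 0.359, above its indices of 0.315 and 0.293 with the 2-cell libraries.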
